A study of Mus musculus with 25 samples.

Results

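Anterior neural tissue of mouse embryos at embryonic day 8.5 (E8.5) was compared between embryos with a knockout (KO) of miR-302 and wild-type (WT) embryos. The members are 6 of the 25 arrays of the series, chosen by their titles: 3 KO and 3 WT arrays. Each array was hybridised with total RNA of 1 embryo, and the design text describes replicates as independent embryos. All embryos were of the B6 strain. The labels give the genotype only as KO or WT, without the allele or the sequence removed. The 3 WT arrays and KO 1 carried the label plate 2, and KO 2 and KO 3 carried plate 3. Eif2s3y, a Y-linked gene, was at 7.62 in WT 1 and 8.38 in KO 1 on the log2 scale and at 4.65 to 5.06 in the other 4 embryos, so KO 1 stood apart from the other KO embryos in both sex and plate. None of the genes that passed the test was Xist or Y-linked (0 genes).

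The miR-302 cluster encodes several small RNAs that are abundant in pluripotent cells and in the early embryo and that decline as tissues differentiate. A microRNA pairs through its seed, the bases near its 5′ end, with messenger RNAs and lowers their stability and translation. At this stage the neural plate folds and closes, neural progenitors divide, and the first neurons appear under proneural factors that Notch signalling holds back.

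Mature 3p sequences of 4 cluster members are shown because the array measures none of them and because their seeds are shared with microRNAs encoded elsewhere. The 5p arms and miR-302a-3p, also of the cluster, are not shown and not counted. They come from the RefSeq annotation of GRCm38.p6, where the cluster lies on chromosome 3, plus strand, and the capitals mark the seed at bases 2 to 8.
miR-302b-3p: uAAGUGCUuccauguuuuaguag
miR-302d-3p: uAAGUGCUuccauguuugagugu
miR-302c-3p: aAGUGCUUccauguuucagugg
miR-367-3p: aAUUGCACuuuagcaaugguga
miR-291a-3p: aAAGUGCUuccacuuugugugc
miR-294-3p: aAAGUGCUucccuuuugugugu
miR-295-3p: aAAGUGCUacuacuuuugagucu
The listed miR-302b-3p is at chr3:127545275-127545297, miR-302d-3p at chr3:127545665-127545687, miR-302c-3p at chr3:127545406-127545427 and miR-367-3p at chr3:127545779-127545800. The seed AAGUGCU of miR-302b and miR-302d was also that of miR-291a-3p, miR-294-3p and miR-295-3p, encoded on chromosome 7, which made 5 of the 1738 mature entries searched. In miR-302c-3p as listed, the same 7 letters start at base 1, so its seed reads AGUGCUU. In miR-17-5p (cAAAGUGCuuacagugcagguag, chromosome 14) they start at base 3. The seed of miR-367-3p was listed for 7 entries, among them miR-25-3p and miR-92a-3p.

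Raw median signals were 110 to 121 on plate 2 and 148 and 140 on the plate 3 arrays, and 45.1% to 47.1% of 25697 probes were above background (detection p under 0.05). Log2 values correlated at 0.982 to 0.985 between WT arrays, at 0.974 to 0.983 between KO arrays and at 0.964 to 0.982 between KO and WT. The precision of every value below is limited by the number of arrays. Of 14 marker genes of anterior neural tissue, 10 could be tested, 6 were above background on all 6 arrays, and Sox3, Hesx1, Pax6 and Pax2 were above background on none. The mean log2 value of the tested markers was 7.78 to 7.89 in WT and 7.35 to 7.69 in KO, against 5.87 to 6.4 in the whole E7.5 embryos. Caudal markers averaged 10.1 to 11.0 in those whole embryos and 5.09 to 6.01 in the 6 neural samples, where Cdx2, Cdx4 and Hoxb9 were above background on no array.

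The first question was which genes differed between KO and WT tissue at this stage. Stmn3, a microtubule-destabilising stathmin of neurons, was 5.37-fold higher in KO, the Wnt agonist Rspo3 5.34-fold higher and the ligand gene Wnt7a at least 2.41-fold higher. Foxd4, a forkhead factor of early neural ectoderm, was 10.5-fold lower, Bcas1, best known from myelinating cells, 6.29-fold lower and the Wnt and Nodal modulator Dact2 4.84-fold lower. Of 10261 genes, 326 were higher in KO (3.18%) and 248 lower (2.42%) at an adjusted p under 0.05 (limma, Benjamini-Hochberg), together 5.59%. The log2 difference was at least 1 in size for 83 of the higher and 64 of the lower genes. Among the higher genes, 36 were not above background on any WT array, and 52 of the lower genes were not above background on any KO array. The 3 KO values lay wholly on 1 side of the 3 WT values for 558 of the 574, against 28.6% of all genes. This follows largely from choosing the 574 by the same values.

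These counts moved with the arrays and with the plate. Leaving out 1 array gave 110 genes without WT 1, 370 without WT 2, 319 without WT 3, 729 without KO 1, 141 without KO 2 and 264 without KO 3. With KO 1 as the sole KO array, so that all arrays compared were on plate 2, 71 genes passed (30 higher, 41 lower), 44 of them among the 574. The lone array was then assumed to vary as the other groups did. With plate as a covariate 99 passed and with plate as a random block 223. Fitted without the arrays of the other stages, the 6 arrays gave 0 genes (limma, lowest adjusted p = 0.0642), with 2141 at an unadjusted p under 0.05. Without the other stages the 6 arrays keep the same group means, so no sign can change. Within plate 2, 573 of the 574 genes kept their sign. For the 558 genes whose groups did not overlap, KO 1 lay on that side already. Among the higher genes the median difference was 0.62 for KO 1 and 0.86 for the mean of KO 2 and KO 3, and among the lower genes it was -0.65 and -0.74.

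Stmn3 was at 6.17, 5.35 and 6.51 in WT 1, WT 2 and WT 3 and at 8.29, 8.52 and 8.5 in KO 1, KO 2 and KO 3. Every KO embryo was above every WT embryo, and the log2 difference was 2.42 (SE 0.34, adjusted p = 0.00117). Rspo3, whose protein amplifies Wnt signalling at LGR receptors, was at 6.34, 6.99 and 5.43 in WT and at 8.99, 8.88 and 8.15 in KO. Its difference was 2.42 (SE 0.33, adjusted p = 0.00117), again with no overlap. Wnt7a was not above background on any WT array (4.86 to 4.89) and stood at 7.25, 7.06 and 6.72 in KO, a difference of 2.14 (SE 0.27, adjusted p = 0.000693). These 3 genes kept an adjusted p under 0.05 with each of the 6 arrays left out and within plate 2.

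Other large rises took in secreted, membrane and nuclear proteins. Smpdl3a, a secreted phosphodiesterase, was at 5.10 to 5.25 in WT, where it was not above background, and at 7.02, 7.69 and 6.66 in KO. Gdap1, which acts in mitochondrial dynamics of neurons, was at 5.37 to 5.76 in WT and at 7.06 to 7.30 in KO, and its other probe also passed (0.89). Chst5, a carbohydrate sulfotransferase, was at 4.81 to 4.90 in WT and at 6.04, 6.72 and 6.69 in KO. Ly6h, a GPI-anchored protein of neurons, was 2.95-fold higher, from 7.17 to 7.64 in WT to 8.62 to 9.21 in KO, and of its 2 other probes (1.22 and 1.72) 1 passed. Adjusted p for these 4 genes lay between 0.00163 and 0.00343, and all 4 kept their call with any 1 array left out. Within plate 2 Ly6h passed, while Gdap1 (0.0654), Smpdl3a (0.0774) and Chst5 (0.126) had an adjusted p above the threshold.

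The histone gene H2bc8 was 3.76-fold higher, but KO 1 at 6.87 was well below KO 2 at 8.89, and its difference within plate 2 was 1.06 (adjusted p = 0.246). Myl1, a myosin light chain of striated muscle (at least 3-fold), the ecto-nucleotidase gene Nt5e (3.78-fold), the magnesium channel gene Trpm6 (3.13-fold) and Rpl22l1, a paralogue of a ribosomal protein (3.6-fold), were also among the 15 largest rises. Those 4 lost their call without WT 1 and without at least 1 other array, and their highest adjusted p over the arrays left out ran from 0.0943 to 0.14. The other probe of Trpm6 gave 0.69 and did not pass.

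Foxd4 showed the largest difference of all genes that passed, at 10.45, 9.97 and 10.52 in WT and 7.52, 6.25 and 7.0 in KO (-3.39, SE 0.52, adjusted p = 0.00163). All KO values lay more than 2 log2 units below the lowest WT value. Bcas1 was at 8.29 to 8.71 in WT and at 5.5, 5.38 and 6.62 in KO, above background in 1 KO embryo (-2.65, SE 0.30, adjusted p = 0.000281). Vstm2l fell by 1.97, with KO 3 at 8.21 close to WT 2 at 8.39. Elfn1, which organises synapses, fell by 1.69, the osteoblast factor gene Sp7 by 1.53 and Jph3, which couples membranes in neurons, by 1.5, and the 3 KO values of Sp7 and Jph3 were not above background. Nfatc1, a calcineurin-regulated factor, fell by 1.42 and its other probe by 1.28. These 7 genes kept an adjusted p under 0.05 without any 1 of the 6 arrays, although within plate 2 adjusted p was 0.0898 for Foxd4, 0.0758 for Jph3 and 0.192 for Nfatc1.

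Eras, a Ras gene of embryonic stem cells, was 2.82-fold lower, and Slc31a2, a copper transport gene, at least 1.85-fold lower. Eras lost its call without WT 1, WT 2, WT 3, KO 1 or KO 2 (adjusted p up to 0.134), and Slc31a2 without WT 2, WT 3 or KO 3 (up to 0.0781).

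**Figure D1:**
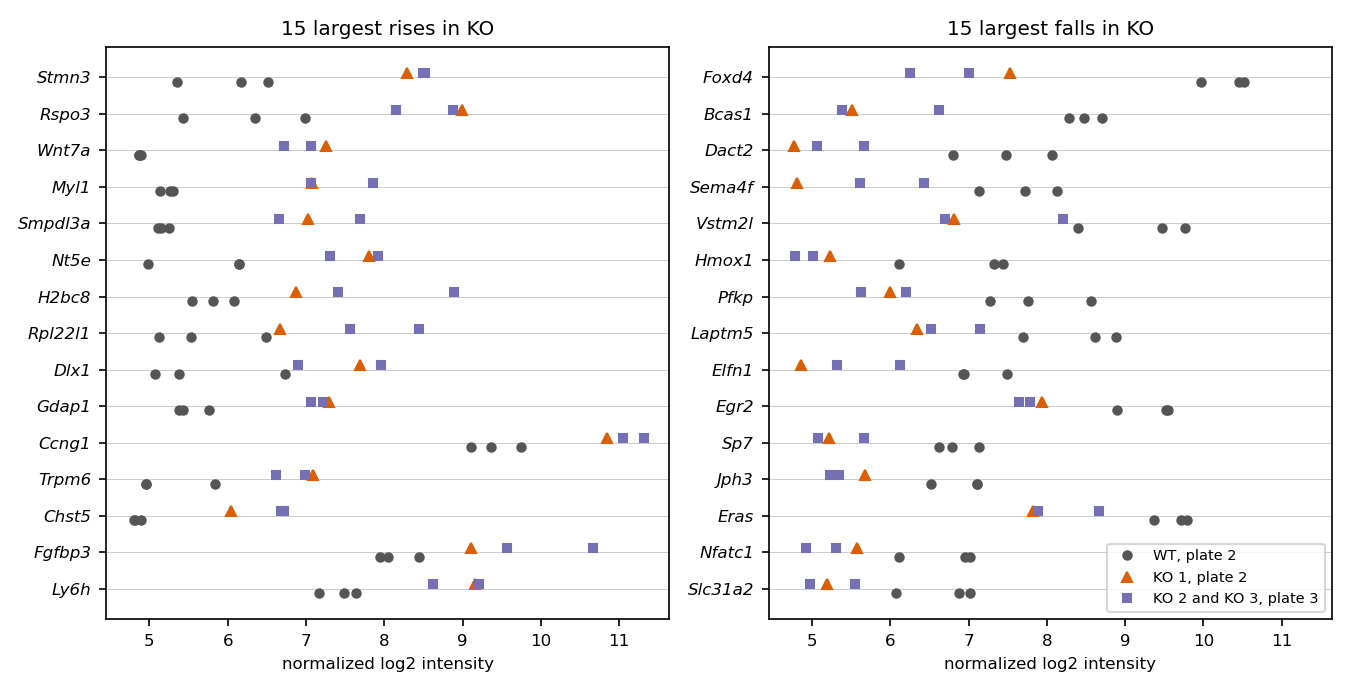
Normalized log2 intensity (horizontal axis) of the 15 largest rises and 15 largest falls at E8.5, 1 point for each embryo; grey circles are WT, the orange triangle is KO 1 on plate 2 and purple squares are KO 2 and KO 3 on plate 3. In every gene shown the KO and WT points do not overlap, which the choice of genes required, and the triangle lies among or near the squares except in a few genes such as H2bc8 (6.87 in KO 1, 8.89 in KO 2).

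The deletion itself could not be read from the array. Larp7, the host gene of the cluster, encodes a protein that binds the 7SK RNA, and its probe was detected on 0 of the 25 arrays (lowest detection p 0.183). Of the 5 genes on either side in RefSeq order, 5 could be tested. Neurog2, a proneural factor gene 2 places from Larp7, was 2.85-fold higher in KO, at 6.26, 6.43 and 5.17 in WT and 7.59, 7.39 and 7.42 in KO (1.51, SE 0.27, adjusted p = 0.00509). Its neighbours Ugt8a (0.11), Camk2d (-0.17), Ank2 (-0.09) and Ap1ar (-0.17) did not pass, with adjusted p between 0.435 and 0.829. Against a share of 5.59% over all genes, the 40 measured genes within 20 on each side held 1 that passed, Neurog2. Its second probe, at 0.48, did not pass, and within plate 2 the difference was 1.64 (adjusted p = 0.0774).

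Genes reported elsewhere as targets of miR-302 or of its relatives showed both directions. Of 23 tested, 3 were higher and 1 was lower in KO, with a median of -0.03 against -0.02 over all genes. Over all genes 3.18% were higher and 2.42% lower, the shares against which this and later list counts are read. The lists were written with earlier results of these data known, so the list shares are descriptions. Cdkn1a, an inhibitor of cyclin-dependent kinases, was at 6.12, 6.63 and 6.20 in WT and 7.54, 7.90 and 7.84 in KO (1.44, SE 0.24, adjusted p = 0.00255). Fgf15, a ligand gene of the early neural tube, was at 9.34, 9.37 and 9.27 in WT and at 10.26, 10.04 and 10.44 in KO (0.92, SE 0.22, adjusted p = 0.0229). Both showed separate groups. Dazap2, an adaptor protein gene, was 1.99-fold higher, with 8.92, 9.70 and 9.73 in WT against 10.20 to 10.58 in KO.

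Arid4b, a subunit of a histone deacetylase complex, ran the other way, at 7.12 to 7.57 in WT and 5.71 to 6.33 in KO (-1.24, SE 0.24, adjusted p = 0.00602). The Nodal antagonist Lefty2 was not above background in either group, and Ccnd1, a cyclin, was at 13.3 to 13.4 in WT with a difference of 0.21 (SE 0.20, adjusted p = 0.578). Within plate 2 none of the 4 calls in this list was kept (0 higher, 0 lower). Fgf15 lost its call without WT 1, WT 3 or KO 3, and Dazap2 without WT 1, KO 2 or KO 3, with adjusted p up to 0.0798 and 0.127. The list was written from reports on miR-302 in other cells, and no untranslated sequence was searched.

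Proneural and neurogenic transcription factors were higher where they passed: 3 of 14 tested were higher and 0 lower, 12 of the 14 had a positive difference, and the median was 0.23. The share higher was 21.4%, against 3.18% of all genes, of which 47.1% had a positive difference. Besides Neurog2, the members higher were Neurod4, a factor of neuronal differentiation, and Hes6, which promotes neurogenesis by opposing Hes1. Neurod4 was not above background in WT (4.8 to 5.18) and was at 6.97 and 6.50 in KO 1 and KO 2 but at 5.37 in KO 3 (1.31, SE 0.33, adjusted p = 0.0281). Hes6 was at 9.73 to 9.86 in WT and 10.21 to 10.37 in KO, a small difference of 0.47 (SE 0.13, adjusted p = 0.0356). The 2 other probes of Hes6 (0.43 and 0.60) did not pass. The Hes6 call was lost with any 1 of the 6 arrays left out (adjusted p up to 0.122), and Neurod4 was lost without WT 1, WT 3, KO 1 or KO 2 (up to 0.118) but passed within plate 2 (2.00, adjusted p = 0.0189).

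Genes of the neuronal cytoskeleton, vesicles and transmitters split, with 3 of 25 higher and 2 lower and a median of 0.12. Together 20% of the list passed, against 5.59% of all genes. Besides Stmn3 and Gdap1, Elavl2, an RNA-binding protein gene of early neurons, rose. It was at 10.23, 10.75 and 10.49 in WT and 11.63, 11.70 and 11.67 in KO, and its other probe passed as well (1.32). Its adjusted p was 0.00382, and 0.104 within plate 2. Stmn2, a stathmin of growing axons, moved opposite to Stmn3, at 9.71, 9.61 and 10.65 in WT and 8.51, 8.68 and 8.59 in KO (-1.40, SE 0.32, adjusted p = 0.0187). Slc32a1, the vesicular transporter of GABA and glycine, was 3.35-fold lower, though KO 3 at 6.24 lay above WT 2 at 6.11. The neuronal tubulin gene Tubb3 was above background in 1 embryo of each group (-0.08, SE 0.26, adjusted p = 0.891). Stmn2 lost its call without WT 3 or KO 2 (adjusted p up to 0.0745), and Slc32a1 without WT 1, WT 3, KO 1 or KO 2 (up to 0.156).

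Neural progenitor factors had 0 of 16 genes past the threshold in either direction (limma), with a median of -0.06, and 1 was lower without KO 1. Sox2, a progenitor transcription factor, was at 8.29, 8.31 and 8.49 in WT and 7.92, 7.20 and 7.18 in KO, without overlap but with an adjusted p of 0.165 (-0.93, SE 0.40), and its other probe, above background on none of the 6 arrays, was at 0.20. Sox1 was at -0.43 (SE 0.33, adjusted p = 0.475). In the Notch pathway 1 of 21 genes was higher, Hes6, and 0 were lower (4.76% passed, against 5.59% of all genes). The Notch effector Hes5 (-0.13, SE 0.42) and the ligand Dll1 (-0.07, SE 0.26) had overlapping groups and adjusted p of 0.888 and 0.909.

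Wnt ligands, receptors and modulators showed some of the largest differences in both directions, with 3 of 42 higher and 2 lower and a median of -0.04. Together 11.9% of the list passed, against 5.59% of all genes. Besides Wnt7a and Rspo3, Wnt4 was higher, at 6.63 to 7.12 in WT and 8.07, 8.05 and 7.69 in KO (1.01, SE 0.27, adjusted p = 0.0348), as was its other probe (1.22). Dact2, whose protein modulates Wnt and Nodal signalling, was at 7.47, 6.79 and 8.06 in WT and 4.77, 5.07 and 5.67 in KO, above background in 1 KO embryo (-2.27, SE 0.42, adjusted p = 0.00509). The Wnt receptor gene Fzd7 fell by 0.65, from 11.09 to 11.48 in WT to 10.63 to 10.77 in KO. Wnt7a, Rspo3 and Dact2 passed within plate 2 as well. Wnt4 lost its call with any 1 array left out (adjusted p up to 0.159), and Fzd7 without WT 1, WT 2, KO 1, KO 2 or KO 3 (up to 0.165).

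In the FGF list 3 of 24 genes were higher and 1 lower, with a median of 0.07. Together 16.7% of the list passed, against 5.59% of all genes. Fgf15 is given above, Fgfbp3 binds and releases FGF ligands, and Etv4 is a transcription factor induced by FGF signalling. Fgfbp3 was at 8.04, 8.45 and 7.94 in WT and 9.11, 10.67 and 9.56 in KO (1.64, SE 0.45, adjusted p = 0.0416). Etv4 was at 7.78 to 8.08 in WT and 8.53 to 8.94 in KO (0.75, SE 0.19, adjusted p = 0.0286). Dusp4, a phosphatase gene of the ERK feedback loop, fell by 0.67 (SE 0.19, adjusted p = 0.0479), while its 2 other probes (-0.45 and -0.40) did not pass. Fgf8, the ligand of the midbrain-hindbrain organiser, was at 9.32 to 9.68 in WT and 9.91 to 10.14 in KO and did not pass (0.51, SE 0.21, adjusted p = 0.148). None of the 4 calls was kept within plate 2 (0 higher, 0 lower), and the number of higher genes ran from 0 without WT 1 or KO 3 to 3 without KO 1.

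The Shh list (13 genes), the BMP and TGF-beta list (25) and the retinoic acid list (12) had 0 genes past the threshold in either direction (limma). Shh itself, the ligand of the ventral neural tube, ranged from 8.43 to 10.39 in WT and from 8.36 to 10.74 in KO. Its spread within each group was larger than the difference of -0.34 (SE 0.72). Bmp4 (0.39, SE 0.32), Ptch1, the Shh receptor (-0.67, SE 0.28), and the retinoic acid synthesis gene Aldh1a2 (-0.80, SE 0.34) did not pass, with adjusted p of 0.507, 0.158 and 0.156.

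Regional patterning genes gave single calls. Of 20 forebrain factors 1 was higher and 1 lower (10% passed, against 5.59% of all genes). Counts this small say little about a list as a whole. Dlx1, a homeobox gene of the ventral forebrain, was at 5.38, 6.74 and 5.07 in WT and 7.69, 7.95 and 6.90 in KO (1.78, SE 0.42, adjusted p = 0.022). Lhx2, a LIM homeobox gene of the forebrain and eye field, was above background in 2 WT embryos and 0 KO embryos and at least 1.31-fold lower (-1.15, SE 0.32, adjusted p = 0.0438). Six3, a factor of the anterior forebrain, was at -0.66 (SE 0.23, adjusted p = 0.0869).

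Of 15 hindbrain genes 1 was lower and none higher (6.67% passed, against 5.59% of all genes). It was Egr2, which patterns hindbrain segments, at 9.54, 8.89 and 9.52 in WT and 7.94, 7.64 and 7.78 in KO (-1.53, SE 0.33, adjusted p = 0.0133). Midbrain and isthmus factors had 0 of 14 past the threshold in either direction, and En1 was at 9.19 to 9.70 in WT and 8.46 to 9.64 in KO. The calls of Dlx1, Lhx2 and Egr2 were lost within plate 2, and each was lost without WT 1 and without KO 2, with adjusted p up to 0.112, 0.14 and 0.0726.

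Axon guidance genes that passed were all lower, 4 of 45 tested with 0 higher, and the median was -0.03. The 4 genes were 8.89% of the list, against 2.42% lower over all genes. Sema4f, a transmembrane semaphorin gene, was at 8.13, 7.13 and 7.72 in WT and 4.81, 6.43 and 5.61 in KO (-2.05, SE 0.39, adjusted p = 0.00587). Its relatives Sema4b (-0.54) and Sema4d (-1.07) and the ephrin receptor gene Ephb1 (-0.96) also fell, with adjusted p of 0.0302, 0.0192 and 0.0153. Ephb1 was at 10.39 to 10.74 in WT and 9.25 to 9.92 in KO. With 1 array left out the number lower ran from 1 without WT 1 or KO 2 to 6 without KO 1, and within plate 2 it was 1.

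Neural tube closure and planar polarity genes, whose loss opens the neural tube in mice, had 0 of 33 genes past the threshold in either direction (limma), with a median of -0.16. Vangl2, a planar polarity gene, was at 10.78 to 11.14 in WT and 10.63 to 11.01 in KO (-0.20, SE 0.21, adjusted p = 0.607). Shroom3, which drives apical constriction, was at -0.16 (SE 0.23, adjusted p = 0.717).

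Of 24 tested targets of the transcription factor p53, 4 were higher (16.7%, against 3.18% of all genes) and 0 lower, while the list median was -0.04. Ccng1, encoding cyclin G1, was at 9.11, 9.75 and 9.37 in WT and 10.85, 11.31 and 11.05 in KO (1.66, SE 0.22, adjusted p = 0.00109), and its 2 other probes passed too (1.27 and 1.54). Cdkn1a is given above, and 1 of its 2 other probes passed. Rrm2b, a ribonucleotide reductase subunit gene, was at 6.90, 7.69 and 7.26 in WT and 7.80, 8.31 and 8.41 in KO (0.89, SE 0.18, adjusted p = 0.00927). Phlda3, which restrains AKT signalling, was at 6.25, 7.20 and 7.28 in WT and 7.84, 8.35 and 8.03 in KO (1.17, SE 0.34, adjusted p = 0.0474), and its other probe (1.30) did not pass. All 4 showed separate groups.

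Ccng1 and Cdkn1a kept their call with any 1 array left out, and Ccng1 also within plate 2, where it was the 1 member of the list that passed. Rrm2b lost it without WT 1 or KO 2 (adjusted p up to 0.0686) and Phlda3 without WT 1, WT 2, WT 3, KO 2 or KO 3 (up to 0.239). Cdkn1a stands in both this list and that of reported miR-302 targets.

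Start-site windows of the 2 firmest members are shown because they rose together and p53 is known to act on them. Each is the RefSeq window of GRCm38.p6 from 250 bases before to 50 bases after an annotated start, and capitals mark letters that match the 10-base p53 consensus unit on the strand printed, a pattern that reads the same on both strands.
Cdkn1a, chr17:29090729-29091028, plus strand: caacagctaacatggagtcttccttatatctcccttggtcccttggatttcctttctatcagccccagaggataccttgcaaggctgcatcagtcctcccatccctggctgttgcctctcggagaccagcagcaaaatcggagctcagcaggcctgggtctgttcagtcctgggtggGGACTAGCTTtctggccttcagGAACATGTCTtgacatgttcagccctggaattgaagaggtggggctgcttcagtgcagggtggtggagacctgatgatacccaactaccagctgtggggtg
Ccng1, chr11:40755237-40755536, minus strand: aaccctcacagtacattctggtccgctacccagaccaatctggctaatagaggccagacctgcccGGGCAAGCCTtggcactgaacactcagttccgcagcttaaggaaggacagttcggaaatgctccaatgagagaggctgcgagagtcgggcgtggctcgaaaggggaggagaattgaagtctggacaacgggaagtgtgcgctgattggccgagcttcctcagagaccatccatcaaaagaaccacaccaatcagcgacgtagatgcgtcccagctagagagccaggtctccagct
The Cdkn1a window held 2 units with at most 13 bases between them, an arrangement found in 24 of all 32851 windows (0.0731%), and the Ccng1 window held 1. A single unit was found in 8.36% of all windows and in 12 of the 36 windows of the list's genes. The other listed start of Cdkn1a and the start of Phlda3 held 0. A match describes letters in this window and is no evidence of binding in these embryos.

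Genes of the mitochondrial respiratory chain and ATP synthase, which carry out oxidative phosphorylation, were higher where they passed: 15 of 72 were higher and 0 lower, 56 had a positive difference, and the median was 0.25. The share higher was 20.8%, against 3.18% of all genes, of which 47.1% had a positive difference. The respiratory chain list and those of ribosomal proteins, histones and RNA polymerase II were defined by gene symbol after the values had been seen. The mean log2 value over the 72 genes was 11.38 to 11.39 in WT and 11.64, 11.77 and 11.69 in KO 1, KO 2 and KO 3, so all KO embryos lay above all WT embryos. Cox7b, a subunit gene of complex IV, was at 5.35, 5.92 and 5.70 in WT and 6.76, 7.78 and 6.93 in KO (1.5, SE 0.27, adjusted p = 0.00456). Ndufs4, a complex I subunit gene, was at 12.4 to 12.6 in WT and 13.1 to 13.3 in KO (0.70, SE 0.11, adjusted p = 0.00163), and the complex III gene Uqcrb was at 9.58 to 9.85 in WT and 10.47 to 10.82 in KO (0.86, SE 0.15, adjusted p = 0.00343). With 1 array left out the number higher ran from 4 without WT 1 to 13 without KO 1, and within plate 2 it was 1. With the authors' processed values it was 22.

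Glycolysis and hypoxia genes that passed were lower, 3 of 29, with 0 higher, 23 negative differences and a median of -0.28. The share lower was 10.3%, against 2.42% of all genes, of which 5426 of 10261 had a negative difference. Hmox1, encoding heme oxygenase, was at 7.44, 6.10 and 7.33 in WT and not above background in KO (4.78 to 5.23), at least 2.28-fold lower. Pfkp, a phosphofructokinase gene, was at 7.27 to 8.57 in WT and 5.63 to 6.20 in KO (-1.92, SE 0.56, adjusted p = 0.0479), and its regulator Pfkfb3 was at least 1.46-fold lower. The other probe of Pfkp (-0.83) did not pass. Ldha, lactate dehydrogenase, was at 14.62 to 14.71 in WT and 14.61 to 14.65 in KO. Pfkp lost its call with any 1 of the 6 arrays left out (adjusted p up to 0.21), Hmox1 without WT 1 (0.0608) and Pfkfb3 without WT 1 or KO 3 (up to 0.0983), and within plate 2 none passed (0 genes).

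Ribosomal protein genes had 2 of 57 higher and 0 lower with a median of 0.06, and RNA polymerase II subunits 1 of 8 higher, Polr2k (1.54), with a median of 0.17. Replication-dependent histones had 1 of 46 higher, H2bc8 (2.17%, against 3.18% of all genes). They had 41 positive differences, against 47.1% positive over all genes. The histone mean was 9.41 to 9.51 in WT and 9.74, 10.18 and 9.68 in KO 1, KO 2 and KO 3. Of 36 cell cycle genes 1 passed, Ccna2 (0.70), which was not above background on any of the 6 arrays. Pluripotency and epiblast genes had 2 of 20 lower (10%, against 2.42% of all genes) and 0 higher. Besides Foxd4 this was Dnmt3b, a DNA methyltransferase of the early embryo, at 13.12 to 13.59 in WT and 12.45 to 12.86 in KO (-0.69, SE 0.18, adjusted p = 0.0304), and its other probe (-0.93) did not pass.

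Lin28 and let-7 genes had 0 of 12 past the threshold in either direction, and Lin28a, which blocks let-7 maturation, was at 10.02 to 10.36 in WT and 9.16 to 9.5 in KO (-0.78, SE 0.30, adjusted p = 0.124). Imprinted growth genes had 1 of 15 higher, Dlk1, a Notch-like ligand gene, at 10.24 to 10.67 in WT and 11.29 to 11.52 in KO (0.97, SE 0.22, adjusted p = 0.0177). Igf2 was at -0.27 (SE 0.10, adjusted p = 0.117). Of 31 matrix genes 1 was lower, Sparc (-0.59), whose other probe (-0.67) did not pass. Dnmt3b lost its call without WT 1, WT 3, KO 1 or KO 2 (adjusted p up to 0.113), Dlk1 without WT 1 or KO 2 (up to 0.0944) and Sparc with any 1 array left out (up to 0.147).

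The dissected tissue holds other cells, and in bulk samples fewer cells of a type and less RNA per cell cannot be told apart. The mean of 22 surface ectoderm genes was 8.15 to 8.46 in WT, 8.27 in KO 1 and 8.72 and 8.70 in KO 2 and KO 3, with a median difference of 0.40. Cldn3, a tight junction gene, was the member that passed, at 6.41 to 7.17 in WT and 7.54 to 8.51 in KO (1.34, SE 0.36, adjusted p = 0.0358). Cdh1, the epithelial cadherin gene, was at 8.55 to 8.62 in WT, 8.69 in KO 1 and 9.26 and 9.40 in KO 2 and KO 3, and did not pass (adjusted p = 0.106). Of 9 tested marker genes of this tissue 8 were above background on every array, with a mean of 8.61 to 9.06 in WT, 8.98 in KO 1 and up to 9.58 in the other KO embryos. Cldn3 lost its call without WT 1, WT 2, KO 2 or KO 3 (adjusted p up to 0.157) and within plate 2 (0.82, adjusted p = 0.494). The list had 3 members higher without KO 1, and within plate 2 it had 0 higher and 1 lower. The part of this tissue in the other results was not tested.

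Against 5426 of all 10261 genes, 18 of 22 endothelial genes had a negative difference (median -0.44). Their mean was 8.26, 7.85 and 7.16 in WT and 7.58, 7.26 and 7.43 in KO, so the groups overlapped, and of 2 members that passed, Ramp2 fell (-0.74) and Flt4 rose (0.95). Ramp2 was lost without WT 1, WT 2, KO 2 or KO 3 (adjusted p up to 0.165), Flt4 with any array but KO 1 left out (up to 0.138), and both within plate 2 and with plate as a random block. Blood genes had 2 of 19 lower, Laptm5 of blood cell lysosomes (-1.73, SE 0.44, adjusted p = 0.0301) and Hmox1, while the embryonic globins Hbb-bh1 (0.40) and Hba-x (-0.06) overlapped between groups. Striated muscle genes had Myl1 higher and Tnnt1, a troponin gene (-0.95), lower among 21. Laptm5 lost its call without WT 1, WT 2, KO 1 or KO 2 (adjusted p up to 0.14) and Tnnt1 without WT 1 or KO 2 (up to 0.0725), and within plate 2 Laptm5, Hmox1, Myl1 and Tnnt1 did not pass.

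Meox2, a mesodermal homeobox gene, was not above background in WT (4.62 to 4.81) or in KO 1 (4.70) and was at 7.04 and 6.67 in KO 2 and KO 3, the plate 3 embryos. Its call (1.40, adjusted p = 0.0311) was lost within plate 2, where the difference was -0.04. Neural crest genes had 1 of 19 lower, Cdh11 (-1.07), whose other probe (-0.91) did not pass. Cdh11 was lost without WT 1, WT 2, KO 2 or KO 3 (adjusted p up to 0.211) and within plate 2 (-0.69, adjusted p = 0.494). The visceral endoderm (22 genes) and trophoblast (14 genes) lists had 0 past the threshold in either direction, though without WT 2 the trophoblast list had 4 lower. Twist1, a factor of crest and head mesenchyme, was at 9.29 to 10.22 in WT and 9.54 to 10.27 in KO.

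**Figure D2:**
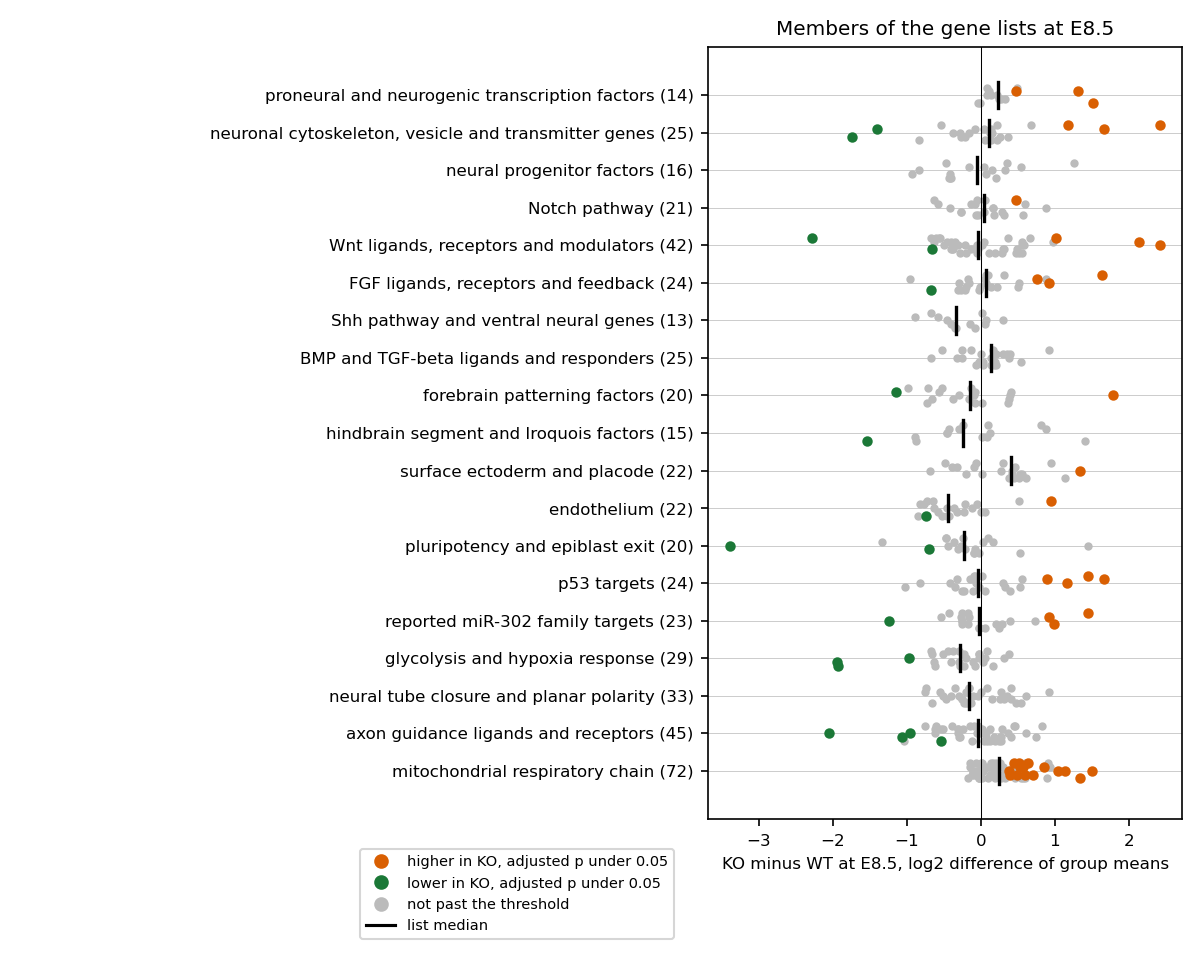
Each point is 1 tested gene of the list named at the left (number tested in brackets), placed by its log2 difference between KO and WT at E8.5; orange and green points passed an adjusted p of 0.05 as higher or lower in KO, grey points did not, and the black bar is the list's median. The 15 orange points of the respiratory chain all lie to the right of 0, the 4 green points of axon guidance to the left, and the neural tube closure, Shh and progenitor lists hold grey points alone.

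A further comparison set the E8.5 differences against the change of WT neural tissue between E8.0 (2 arrays) and E9.5 (4 arrays), which shares no array with them. Both came from the same model and share its variance estimate for each gene, so a gene that varied little could pass more easily in both. This can raise the overlap of calls given below. Over all genes, 1974 were higher at E9.5 than at E8.0 (19.2%) and 2455 lower (23.9%). These WT arrays were on plates 1 and 4, so stage and plate cannot be told apart there. Of the 326 genes higher in the E8.5 KO, 235 (72.1%) were among those that rise with stage and 13 (3.99%) among those that fall. Of the 248 lower genes, 150 (60.5%) fall with stage and 9 (3.63%) rise. Those 235 genes were 11.9% of all that rise with stage, and the 150 were 6.11% of all that fall. The median WT change was 0.87 for the higher genes, -0.65 for the lower genes and -0.08 for all genes.

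These directions differed between the normalization used here and the authors' values, and the cause was not tested. With the authors' values the median WT change over all genes was 0.44, and 7750 genes rose with stage while 229 fell. Of the higher genes 320 then rose and 0 fell, and of the lower genes 112 rose and 38 fell. Taken relative to the median of all genes, 294 of the 326 higher genes were above it (90.2%) and 296 with the authors' values (90.8%). Of the 248 lower genes, 197 were below it, and 200 with the authors' values. The signs of single genes and the list counts that follow hold for the normalization used here.

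Single genes ranged widely. Dlx1 rose by 4.41 from E8.0 to E9.5 in WT, Neurod4 by 3.92 and Rspo3 by 2.72, and all were higher in the E8.5 KO. Foxd4 fell by 5.79, Egr2 fell by 4.22 and Dact2 fell by 2.66, and all were lower in the E8.5 KO. Fgf15 ran against this, since it fell by 0.75 with stage and was higher in KO, as did Arid4b, which rose by 0.92 and was lower in KO. In the respiratory chain list 37 of 72 genes rose with stage and 7 fell, with a median of 0.33. In the glycolysis list 0 rose and 13 of 29 fell, with a median of -0.49.

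**Figure D3:**
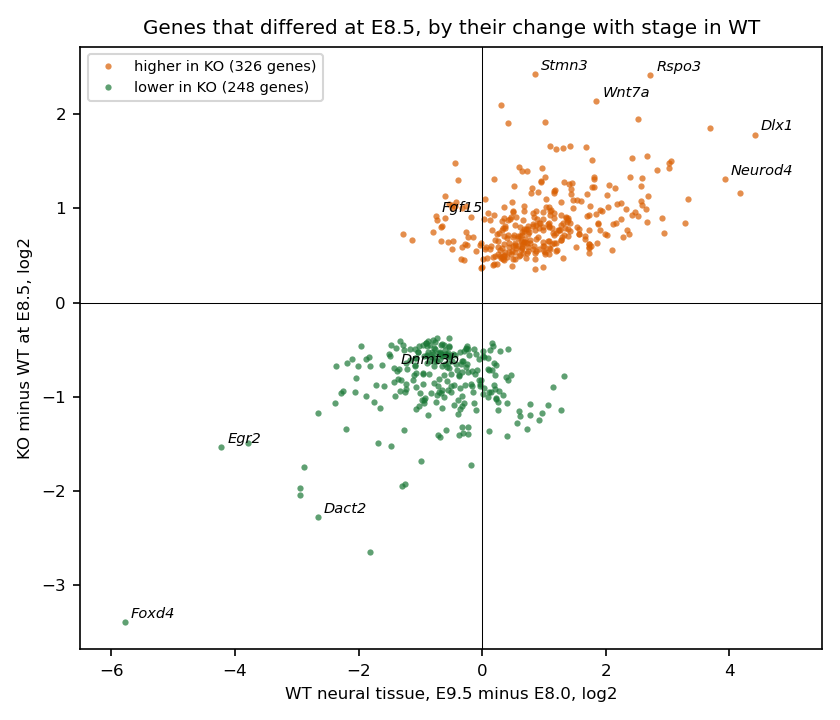
Each of the 574 genes that passed at E8.5 is placed by its WT log2 change from E8.0 to E9.5 (horizontal axis) and its KO minus WT difference at E8.5 (vertical axis), orange for higher and green for lower in KO. Of the orange points 235 belong to genes that rise with stage and of the green points 150 to genes that fall under the normalization used here, and Fgf15 is among the orange points left of 0.

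The mean log2 value of the stage-rising genes less that of the stage-falling genes was then taken in each array and put on a scale where the E8.0 WT mean is 0% and the E9.5 WT mean 100%. WT embryos at E8.5 stood at 11.5%, 26.3% and 17.6%, and KO embryos at 38.1%, 44.4% and 37.2%. All KO embryos were above all WT embryos, KO 1 on the same plate included. Of the 1974 genes that rise with stage, 74.7% had a positive KO difference at E8.5, against 26% of the 2455 that fall and 47.1% of all genes. The KO embryos at E8.0 stood at 19.8%, 26.7% and 21.9%. Those at E9.5 stood at 83% to 89.6%, against 93.4% to 108% in their WT. The genes and both ends of the scale were chosen from the WT arrays of E8.0 and E9.5, which therefore lie at its ends. Other arrays of those stages can lie further in for that reason alone, so KO is not read against WT there. The whole E7.5 embryos stood at 0.585% to 14.9% and the E8.0 WT array labelled whole embryo at 20.8%. These lie above the E8.0 WT mean, so the scale did not order all arrays by stage. The place on this scale is a description of the arrays, with no test. The deposited tables disagree on which E8.0 WT array is which, and with the other assignment the E8.5 values were 6.77%, 21.8% and 10.4% in WT and 36.2%, 39.3% and 32.6% in KO. With the authors' values they were 11.9%, 28.5% and 11.3% in WT and 45.7%, 46.2% and 36.4% in KO, again without overlap. The E7.5 embryos then stood at 13.2% to 19.1%, above the E8.5 embryos WT 1 and WT 3.

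**Figure D4:**
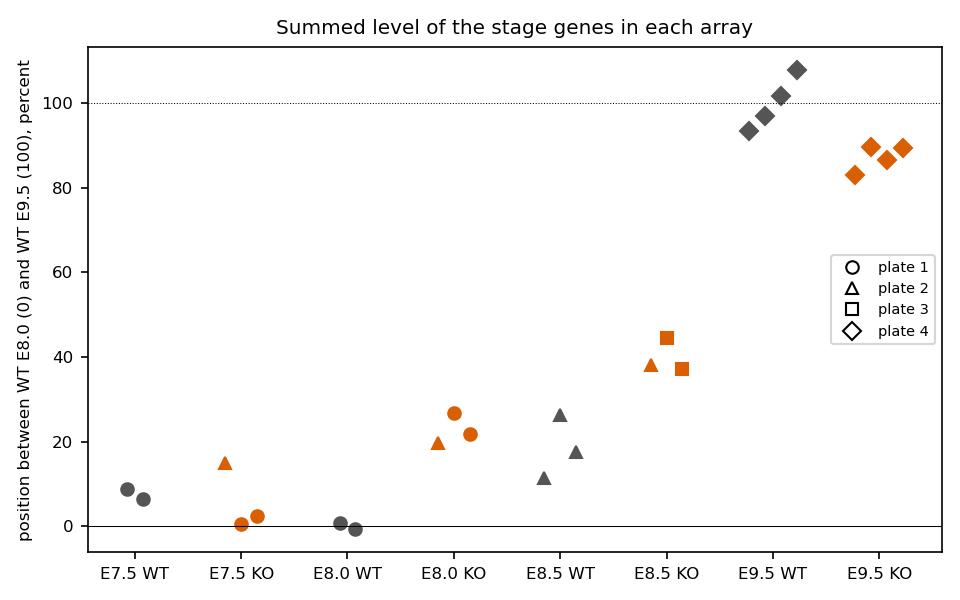
Each point is 1 array, placed on the vertical axis between the mean of the E8.0 WT arrays (0%) and that of the E9.5 WT arrays (100%) by its stage genes; grey is WT, orange is KO and the symbol gives the plate. At E8.5 the 3 KO arrays (37.2% to 44.4%) lie above the 3 WT arrays (11.5% to 26.3%). The WT arrays of E8.0 and E9.5 set the scale, so KO is not read against WT at those stages.

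The KO comparisons at E8.0 and E9.5 use other embryos. The E8.0 comparison had 2 WT arrays, both on plate 1, and 3 KO arrays, of which KO 1 was on plate 2. Of the 326 genes higher at E8.5, 301 had a positive KO difference at E8.0 and 76 at E9.5. Of the 248 lower genes, 206 were negative at E8.0 and 101 at E9.5. The share of all genes with each sign at those stages is not given here, so agreement is not read from these counts. At E8.0, 37 of the 326 and 12 of the 248 passed in the same direction, 30.1% and 21.8% of what passed in that direction there, and 1 of each passed in the opposite one. At E9.5, 9 and 5 passed in the same direction, 5.62% and 6.85% of the calls there, and 8 and 6 in the opposite one. The shares of all genes that were higher and lower at E8.5, against which these percentages stand, were 3.18% and 2.42%. The comparisons share the model's variance estimate for each gene, which can raise the number of joint calls. No gene passed at all 3 neural stages in the same direction (0 genes).

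The difference of the KO effects was tested directly. Between E9.5 and E8.5 it passed for 1038 genes (10.1%). Of these, 388 were among the 574, which had been chosen by the same E8.5 effect that the test subtracts, and nothing is read from that number. The difference passed between E8.0 and E8.5 for 13 genes (0.127%). Stmn3 differed between KO and WT by 1.51 at E8.0, 2.42 at E8.5 and -0.01 at E9.5, and Ccng1 by 1.45, 1.66 and -0.20. Foxd4 stood at -0.90, -3.39 and 0.25 at the 3 stages. In contrast Wnt7a (1.64 at E9.5), Neurog2 (1.44) and Fgf15 (2.13) were also higher at E9.5. Dlk1 had opposite signs, at -0.79 at E8.0, 0.97 at E8.5 and -0.49 at E9.5.

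**Figure D5:**
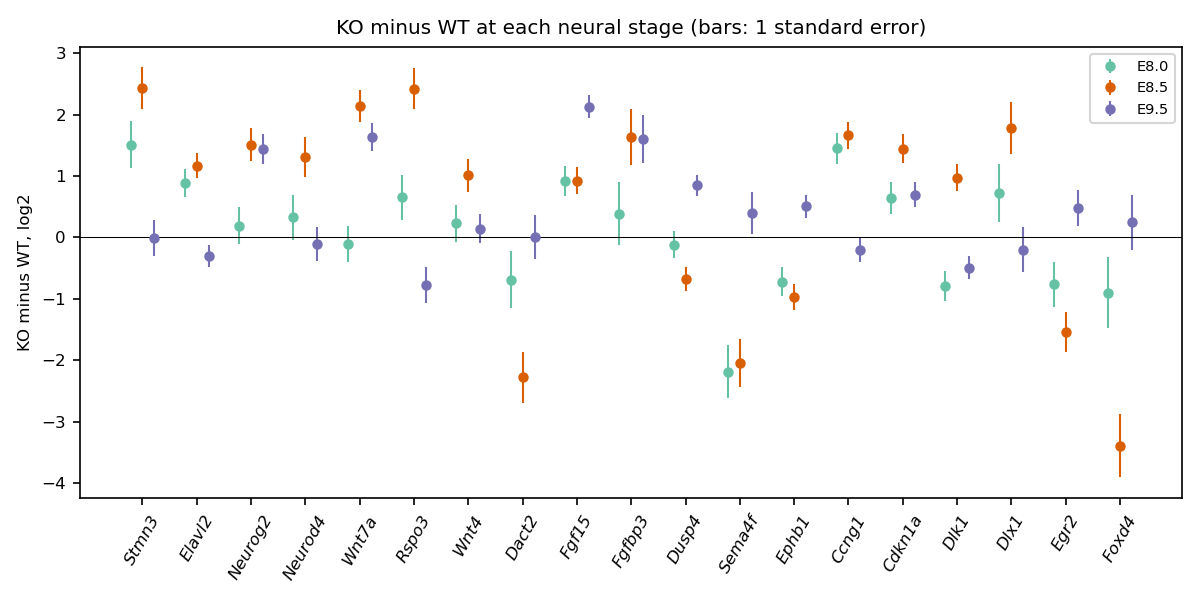
KO minus WT log2 differences with 1 standard error at E8.0 (green), E8.5 (orange) and E9.5 (purple) for 19 named genes. The E8.5 points of Stmn3, Rspo3, Dact2, Dlx1 and Foxd4 lie far from 0 while their E9.5 points lie at -0.77 to 0.25, and Wnt7a, Neurog2, Fgf15 and Fgfbp3 stay above 0 at both later stages.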

How the data were processed

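Total RNA of single embryos was extracted with Trizol and hybridised, 1 sample to an array, to Illumina bead arrays (MouseRef-8 v2.0), per the labels' protocols. The deposited raw table holds, per the file headers, an average signal (a linear intensity without normalization) and a detection p-value for 25697 probes. The authors' deposited value table holds processed intensities on a linear scale. How the authors made it: not given in the sources used here.

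Raw signals went through neqc of limma 3.58.1 (R 4.3.3): normexp background correction whose control level is inferred from detection p-values, an offset of 16, quantile normalization and log2. Probes above background (detection p under 0.05) on at least 3 of 25 arrays were kept, and 885 kept probes without a gene symbol left out. The platform annotation gave 1 symbol to 23978 probes, several to 0 and none to 1719, and 23962 named probes were found in RefSeq (GRCm38.p6). The brightest probe of each of 10261 genes was used (2752 had several), and other probes of named genes that passed are given where their call or sign differed. One limma model (lmFit, eBayes, 16 residual degrees of freedom, 19.3 with the prior) held 9 groups, with the E8.0 WT array labelled whole embryo as its own group. Tests were two-sided and adjusted by Benjamini-Hochberg within a contrast. All arrays were fitted together because 6 arrays leave 4 residual degrees of freedom. The models were tested on simulated data with independent noise and no plate effect, so that test says nothing about the plates. A gene is above background where its detection p is under 0.05. Where it was so on no array of a group, the fold is a bound: each array of that group was given the lowest value among its detected probes, or the gene's own value if higher, and the mean of these was set against the brighter group's mean.

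Same-numbered embryos did not pair (correlations of deviations 0.09, -0.03 and 0.08). Named genes were the 15 largest rises and falls without overlap, the first 2 and up to 6 that passed in each of 31 gene lists, and neighbours of the cluster. Cox7b, Ndufs4, Uqcrb, Polr2k and 4 lists defined by symbol were chosen after their values were seen. The members and lists were chosen with earlier results of these data known. No set test was run, and list counts are read against all genes.

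Each column of the value table ranked the probes as its own raw column did for 22 of 25 arrays, the 6 studied here among them. The 3 E8.0 WT columns were assigned differently, and the raw table's assignment was used. Alternatives covered background correction, the value table, filters, probe choice, plate, other stages, array weights and each array left out.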

Additional observations from a re-analysis of the deposited data

Results flagged for a closer look

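The KO effect at E9.5 differed from that at E8.5, by a test of the difference itself (limma, Benjamini-Hochberg over all genes), for 41 of the 100 named genes. Of the 100, 61 had passed at E8.5, and the test subtracts that same E8.5 effect, so the choice of genes itself favours an E9.5 effect smaller than the E8.5 one. Values in brackets are the E9.5 effect minus the E8.5 effect on the log2 scale, and adjusted p ran from 0.00119 to 0.0474. E8.5 and E9.5 arrays lay on different plates, so stage and plate cannot be told apart in this comparison.

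Among genes with neuronal, Wnt, FGF and patterning roles that were higher in KO at E8.5, the effect was lower at E9.5 for Stmn3 (-2.43), Elavl2 (-1.47), Gdap1 (-1.42), Neurod4 (-1.42), Rspo3 (-3.19) and Dlx1 (-1.98). Fgf15 ran the other way, with a larger rise at E9.5 (1.21). Among those lower at E8.5, the effect was higher at E9.5 for Foxd4 (3.64), Egr2 (2.01), Dact2 (2.28), Fzd7 (1.02) and Dusp4 (1.52). The matrix gene Sparc, also lower at E8.5, had a higher effect at E9.5 too (0.79). The axon guidance genes Sema4f (2.44), Sema4b (0.91), Sema4d (1.04) and Ephb1 (1.47) moved likewise.

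Among the other large rises at E8.5, the effect was lower at E9.5 for Ccng1 (-1.86), Smpdl3a (-2.23), Chst5 (-1.98), Nt5e (-1.99), Myl1 (-2.88), H2bc8 (-2.97), Rpl22l1 (-2.41) and Trpm6 (-1.92). The same direction was found for Dlk1 (-1.46), Ccna2 (-0.73) and Cdh1 (-0.86). Among the other falls, the effect was higher at E9.5 for Bcas1 (2.12), Vstm2l (2.42), Hmox1 (2.27), Pfkp (2.64), Elfn1 (1.72), Sp7 (1.62), Jph3 (1.77), Nfatc1 (1.42) and Arid4b (1.04).

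Neural genes that did not pass at E8.5 had a higher KO effect at E9.5 in Hes5 (2.28), Sox2 (2.13), Dll1 (1.20) and En1 (2.81). En1, which marks the midbrain and isthmus, was at -0.34 at E8.5 and 2.48 at E9.5, and the Notch effector Hes5 at -0.13 and 2.15.

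Between E8.0 and E8.5 the difference passed for 4 named genes. The E8.0 effect minus the E8.5 effect was -2.24 for Wnt7a, -1.77 for Dlk1, 1.97 for Sp7 and 1.74 for Hand1, a gene of heart and trophoblast, with adjusted p from 0.0238 to 0.0483. These E8.0 calls depended on the settings given in the next section.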

How the results depend on the processing

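The sign of the E8.5 difference was kept by each of the 574 genes that an alternative tested, except that 573 kept it with plate as a covariate, within plate 2 and with the mean over probes. Several of these alternatives leave the E8.5 group means as they were. The 558 genes without overlap cannot change sign when 1 array is left out. Little is therefore read from the signs. The count of 574 stayed within 1.5 times with no background correction (782), the authors' values (600), no filter on dim probes (542), a detection p under 0.01 (605), the mean over probes (552), eBayes with trend and robust (738) and the other assignment of the E8.0 WT arrays (481, added after seeing the data). Same-numbered embryos share only a number, and with the replicate number as a block 400 genes passed (224 higher, 176 lower). Fitted alone, the 6 arrays gave 0 (0 higher, 0 lower), and normalized and fitted alone 96 (66 and 30). Without the E9.5 arrays 214 passed (134 and 80). Plate as a covariate gave 99 (44 and 55), plate as a random block 223 (123 and 100), comparison within plate 2 gave 71 (30 and 41) and array weights 1172 (614 and 558). With 1 array left out the count ran from 110 (67 higher, 43 lower, without WT 1) to 729 (422 and 307, without KO 1). Meox2 was at -0.042 with plate as a covariate and within plate 2.

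The 1038 genes whose KO effect differed between E9.5 and E8.5 became 228 with plate as a covariate, 87 within plate 2, 1947 with array weights and 407 to 1023 with 1 array left out. The 13 for E8.0 became 0 with no background correction, with the authors' values, without the E9.5 arrays and with trend and robust, 2 with the other E8.0 WT assignment, 5 at a detection p under 0.01, 7 with the mean over probes, 3 and 4 with plate as a fixed or a random term, 54 with array weights and 0 to 62 with 1 array left out. The WT stage comparison, 4429 genes, gave 7979 with the authors' values, 7750 higher and 229 lower at E9.5 against 1974 and 2455. The cause of these differences was not tested.

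Of the 61 named genes that passed at E8.5, 22 kept an adjusted p under 0.05 with each of the 6 arrays left out and 12 within plate 2. Genes near background, such as Wnt7a in WT, have only a bound on their fold.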
